A study of Mus musculus with 24 samples.

Results

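The p53 pathway and INK4-ARF genes are 31 named genes of the 55471 in the deposited count tables: Trp53 and its inhibitors Mdm2 and Mdm4, 26 genes listed as p53 targets or effectors besides Mdm2, and Cdkn2a and Cdkn2b of the INK4-ARF locus. They were chosen by name, with earlier results of these data known, and all 31 passed the filter on low counts. RNA-seq covered 24 libraries of 3T3 mouse embryonic fibroblasts (MEFs), immortalised fibroblasts, in 8 groups of 3. The groups were wild type (WT), Lkb1-/- (Stk11 knockout), and the Lkb1-/-/Crtc2-/- clones A1 and A2, each untreated or given IL-1β, an inflammatory cytokine, for 6 h. Both clones therefore lack Lkb1 as well as Crtc2, a coactivator of CREB that LKB1 signalling restrains. The WT and Lkb1-/- cells are separate established lines, and each double knockout is a single CRISPR clone, so genotype cannot be told apart from line or clone. Nothing in the labels says that replicates came from separate cultures, so p-values measure the spread between these libraries.

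p53, encoded by Trp53, is a transcription factor that is stabilised after DNA damage and oncogenic stress, and its targets arrest the cell cycle, repair DNA or drive cell death. MDM2 is both a p53 target and the ubiquitin ligase that degrades p53, and MDM4 blocks its activity. The Cdkn2a gene encodes p16INK4a, an inhibitor of CDK4 and CDK6, and p19ARF, which inhibits MDM2, while the adjacent Cdkn2b encodes p15INK4b. 3T3 lines of mouse fibroblasts commonly become immortal by losing p53 or ARF function, and messenger levels do not show whether the p53 protein of these lines is functional.

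The libraries held 38842901 to 48594394 counts on genes, with a median of 42431965. Levels are CPM, gene counts relative to the library total after TMM scaling, and differences are log2 fold changes with SE from edgeR's quasi-likelihood test over 17522 genes, called at a false discovery rate (FDR) under 0.05. Stk11 fell from 86.0 ± 1.68 CPM in untreated WT cells to 17.3 ± 1.24 in Lkb1-/- cells (SD, n = 3), and Crtc2 fell from 81.1 ± 1.80 in Lkb1-/- cells to 42.9 ± 2.11 in A1 and 49.8 ± 0.864 in A2. Untreated WT cells had 58.4 ± 2.44 CPM of Crtc2, below Lkb1-/- cells, so the drop in the clones was partial, and messenger levels do not show whether protein is made. Of 8 fibroblast markers 6 were tested, and the marker sum ranged from 3676 to 7575 CPM over all libraries. Untreated WT libraries had sums of 6168 to 7575 CPM and untreated Lkb1-/- libraries 4546 to 5215, without overlap. Between these 2 groups, 3 of the 6 tested markers fell with loss of Lkb1, 2 rose and 1 passed no threshold. Thy1 had at most 3 counts in each library, and Dcn averaged 0.411 CPM in untreated WT cells and 218 in Lkb1-/- cells. Summed markers of epithelial cells were at most 0.499 CPM, of endothelial cells 3.85 and of leukocytes 6.82, with Ptprc, Adgre1 and Cd3e at 3 counts or fewer. Endothelial markers summed to 0.424 to 0.678 CPM in untreated WT and 2.33 to 3.71 in the other untreated libraries, nearly all of it Kdr, and any part in the results was not tested. Mitochondrial genes took 3.03 to 4.57% of counts in replicate 1 and 1.27 to 2.02% in replicates 2 and 3, in every genotype.

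On a scale per kilobase of exon, which permits comparison between genes, Cdkn2a (93.2 CPM per kb) and Trp53 (87.2) were the highest of the 31 genes in untreated WT cells, followed by Ccng1 (43.3). Psrc1 (0.918), Eda2r (0.325) and Pmaip1 (0.0716) were the lowest. Pmaip1 and Eda2r, unlike the other 29, had fewer than 10 counts in at least 1 library. The plot of levels by library shows 12 of the genes.

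**Figure D1:**
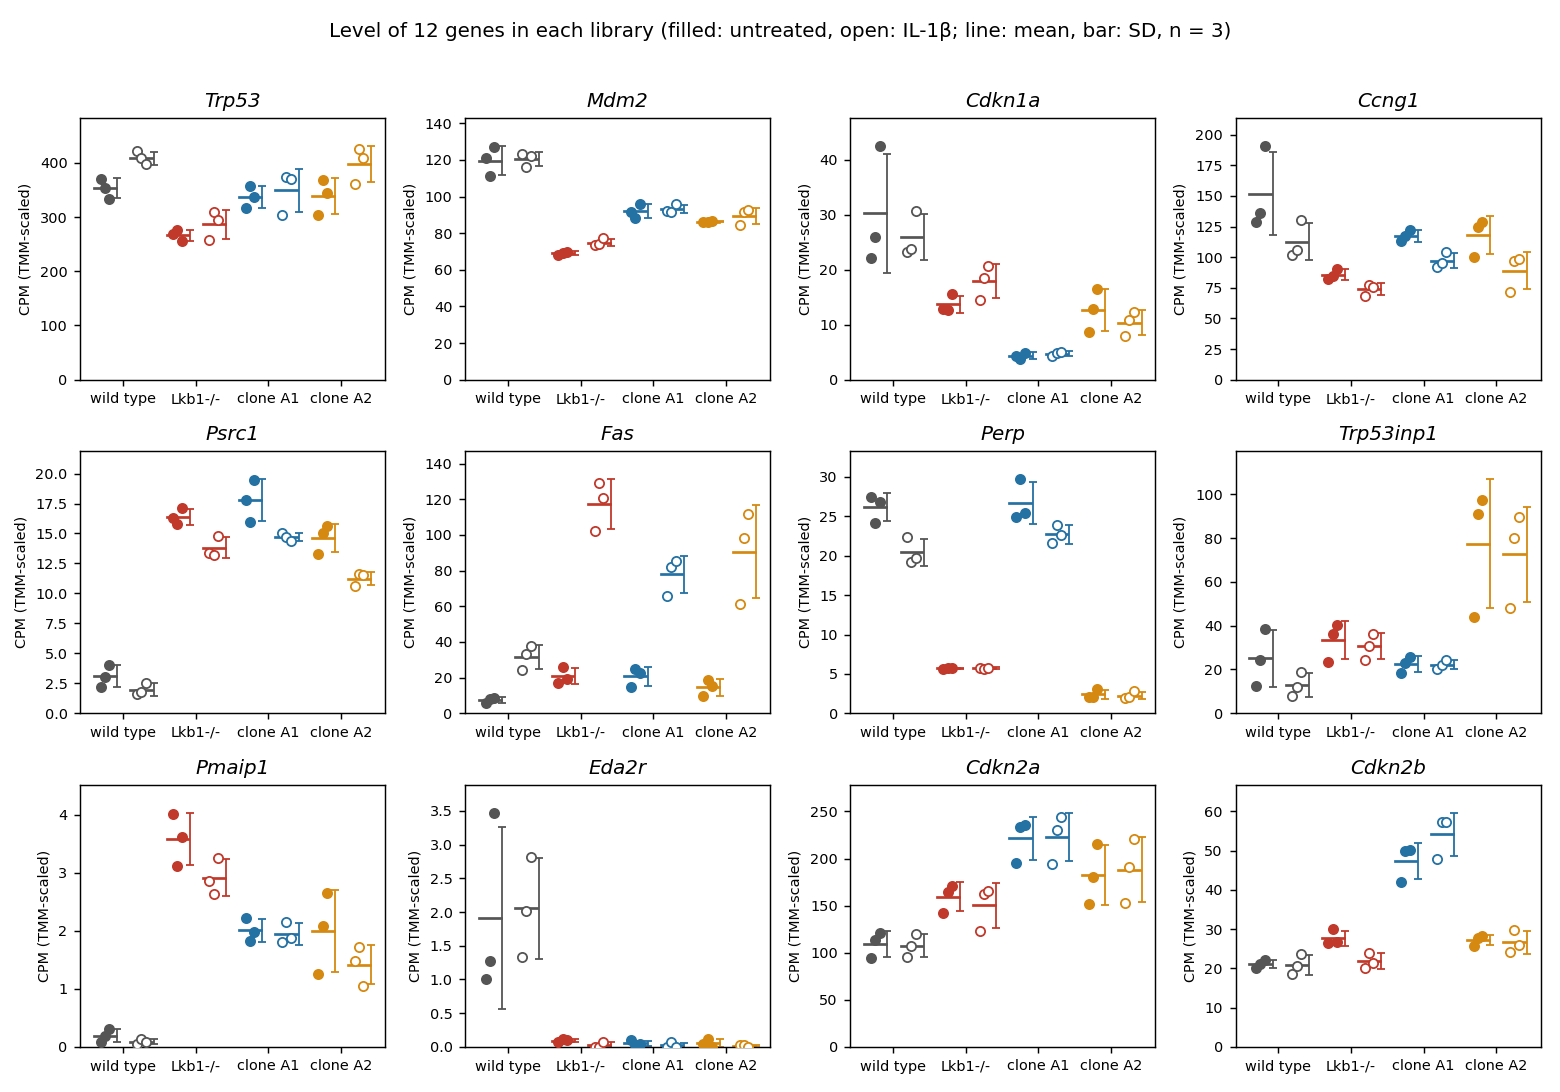
CPM of 12 genes in each of the 24 libraries by genotype, untreated (filled points) or after IL-1β (open points), with the mean as a line and the SD as a bar (n = 3). Mdm2 and Cdkn1a were highest in WT cells, Eda2r was near 0 outside WT cells, Perp was high in WT and A1 alone, and Fas was higher after IL-1β in each genotype.

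The first comparison asked how loss of Lkb1 relates to these genes in untreated cells. Of the 27 genes listed as p53 targets, 15 were lower in Lkb1-/- cells than in WT cells, including Cdkn1a, Mdm2, Btg2, Perp, Aen and Tigar, while Psrc1, Pmaip1, Fas and Ddb2 were higher, as were both INK4-ARF genes. By edgeR, 25 of the 31 genes were called, 9 higher and 16 lower, and 55.9% of all genes tested were called (30.1% higher and 25.8% lower). Libraries of the 2 genotypes did not overlap for those 25 genes, and did not for 64.8% of all genes tested. The median log2 fold change was -0.40 over the 31 genes and 0.04 over all genes tested. Of the 27 targets, 6 were higher and 6 were not called, with a median of -0.52. In a further list of 24 p53 targets, 9 were higher and 4 lower, with a median of 0.23.

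Trp53 itself was at 371, 353 and 334 CPM in the untreated WT libraries and 268, 276 and 256 in the Lkb1-/- libraries. The lowest WT library was thus above the highest Lkb1-/- library. The log2 fold change was -0.40 (SE 0.089, FDR = 0.00058 by edgeR). Mdm2 was at 121, 111 and 127 CPM in WT cells and at 67.9, 69.4 and 69.9 in Lkb1-/- cells. This was a 1.73-fold lower level with no overlap (log2 fold change -0.79, SE 0.053, edgeR FDR = 4.1e-11). Mdm4 moved the other way and rose by 0.38 (SE 0.093, edgeR FDR = 0.0013), from 91.3 ± 5.85 to 119 ± 4.78 CPM.

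Of 7 genes of arrest and the damage response, 4 fell, Psrc1 rose, and Gadd45a and Plk2 were not called. Cdkn1a, which encodes the CDK inhibitor p21, was at 22.2, 25.9 and 42.5 CPM in WT cells and 12.8, 12.7 and 15.5 in Lkb1-/- cells. All WT libraries were above all Lkb1-/- libraries, although WT replicate 3 stood well above the other two. The fold change was -1.14 on the log2 scale (SE 0.23, edgeR FDR = 0.00021). Btg2, an antiproliferative gene, fell from 14.4 ± 2.85 to 6.35 ± 0.711 CPM, Ccng1, which encodes cyclin G1, fell from 152 ± 34 to 85.8 ± 4.43, and Plk3, a stress-responsive Polo-like kinase, fell from 25.3 ± 3.11 to 14.8 ± 0.712 (edgeR FDR = 2.9e-06, 2.6e-05 and 2.0e-06). Psrc1, whose product binds microtubules, was at 2.23, 2.99 and 4.04 CPM in WT cells and 16.3, 15.8 and 17.1 in Lkb1-/- cells. That 5.33-fold rise (log2 2.41, SE 0.16, edgeR FDR = 3.7e-11) ran against the direction of most of the group. Gadd45a, which acts in growth arrest and repair, differed by -0.21 on the log2 scale (95% interval -0.55 to 0.13), and Plk2, another Polo-like kinase, by 0.04 (-0.30 to 0.37).

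WT replicate 3 had the highest level of its 3 untreated libraries for 17 of the 27 listed targets, against 34.4% of all genes tested. Replicate 3 was also the highest for 10 to 16 of the 27 targets in each of the other 7 groups, against 33.9 to 40.7% of all genes. Without untreated WT replicate 3, 25 of the 31 genes were still called in the untreated comparison of Lkb1-/- with WT cells.

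The promoter windows of 3 of these arrest genes and of Cdkn2b hold motifs that bear on this study, the p53 site and the cAMP response element (CRE, TGACGTCA) that CREB and its CRTC coactivators use, and are shown for that reason. RefSeq promoter windows (GRCm38.p6) were matched for 23 of the 31 genes, with no entry for Pmaip1, Tnfrsf10b, Trp53inp1, Perp, Zmat3, Rrm2b, Xpc and Ddb2, and the 250 bases before each start were searched on both strands. A p53 half-site was in 7.13% of 32851 windows and in 10 of the 32 windows of the 23 genes, some of which have several, with 1 such window each in 10 genes (Trp53, Mdm2, Cdkn1a, Ccng1, Gadd45a, Bax, Ei24, Aen, Sesn1 and Polk). A full p53 site, 2 half-sites at most 13 bases apart, was in 0.0639% of windows and, among these genes, in that of Cdkn1a alone. The CRE was in 1.55% of windows and in those of Btg2, Plk2 and Cdkn2b. Capitals mark the match to the full-site pattern in Cdkn1a (chr17:29090729-29090978, plus strand), 73 to 42 bases before the start. Only exact matches are marked. The bases directly after this one (tgacatgttc) miss the half-site pattern at their first base alone, so a pairing with them is left unmarked. Capitals also mark the CRE in Plk2 (chr13:110394794-110395043, plus strand), 62 to 55 bases before the start, Btg2 (chr1:134079156-134079405, minus strand), 166 to 159 bases before it, and Cdkn2b (chr4:89311033-89311282, minus strand), 46 to 39 bases before it. The match describes the letters in the window and not binding. All are 5′ to 3′ on the gene's strand.
Cdkn1a: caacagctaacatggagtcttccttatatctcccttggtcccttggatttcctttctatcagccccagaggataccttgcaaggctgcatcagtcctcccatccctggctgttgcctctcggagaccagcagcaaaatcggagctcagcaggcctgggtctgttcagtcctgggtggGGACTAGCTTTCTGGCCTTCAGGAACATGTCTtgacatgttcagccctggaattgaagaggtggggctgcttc
Plk2: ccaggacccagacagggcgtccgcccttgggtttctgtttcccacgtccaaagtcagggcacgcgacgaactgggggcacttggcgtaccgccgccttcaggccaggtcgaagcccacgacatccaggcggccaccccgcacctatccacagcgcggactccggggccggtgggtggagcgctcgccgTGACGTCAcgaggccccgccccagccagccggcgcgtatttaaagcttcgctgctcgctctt
Btg2: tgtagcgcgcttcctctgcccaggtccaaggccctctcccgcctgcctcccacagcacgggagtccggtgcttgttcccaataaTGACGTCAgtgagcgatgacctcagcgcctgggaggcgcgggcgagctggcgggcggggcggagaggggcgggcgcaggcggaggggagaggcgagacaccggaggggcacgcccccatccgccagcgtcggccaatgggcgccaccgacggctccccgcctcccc
Cdkn2b: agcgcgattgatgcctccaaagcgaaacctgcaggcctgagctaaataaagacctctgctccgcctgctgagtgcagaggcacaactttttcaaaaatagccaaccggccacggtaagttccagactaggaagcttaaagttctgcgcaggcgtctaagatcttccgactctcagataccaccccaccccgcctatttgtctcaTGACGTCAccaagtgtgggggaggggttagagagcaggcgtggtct

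Of the 12 cell death genes, 8 fell, 3 rose and Trp53inp1 was not called. The BH3-only gene Bbc3 (PUMA) was at 8.46, 9.39 and 8.69 CPM in WT cells and 4.69, 4.76 and 4.38 in Lkb1-/- cells, without overlap (log2 -0.94, SE 0.13, edgeR FDR = 3.9e-06). Pmaip1 (NOXA), the other p53-responsive BH3-only gene, moved in the opposite direction. It had 4, 8 and 12 counts in the untreated WT libraries and 177, 134 and 152 in the Lkb1-/- libraries, an 18.4-fold difference (log2 4.20, SE 0.34, edgeR FDR = 7.2e-10). Bax, the pore-forming effector, fell from 51.3 ± 1.92 to 35.8 ± 1.63 CPM.

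Among death receptors, Fas was at 5.76, 8.24 and 8.50 CPM in WT cells and 17.0, 26 and 19.5 in Lkb1-/- cells. The Lkb1-/- libraries were all higher (log2 1.47, SE 0.27, edgeR FDR = 7.1e-05). Tnfrsf10b, the mouse TRAIL receptor, rose from 90.7 ± 5.25 to 132 ± 10.2 CPM. Eda2r, a receptor of the TNF receptor family, had 45, 55 and 133 counts in the untreated WT libraries and 3, 5 and 4 in the Lkb1-/- libraries. From summed counts it was 19.8-fold lower in Lkb1-/- cells (counting interval 11.1 to 38.9, counting error only), and the test gave FDR = 1.0e-05 by edgeR. WT replicate 3 held most of the WT counts, and without it the difference was 12.2-fold (6.69 to 24.4).

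Perp, a membrane protein gene of apoptosis and cell adhesion, had the largest decrease of these 12 genes after Eda2r. It was at 27.5, 24.2 and 26.8 CPM in WT cells and 5.64, 5.71 and 5.79 in Lkb1-/- cells. The difference was 4.59-fold with no overlap (log2 -2.20, SE 0.13, edgeR FDR = 4.3e-12). Aen, an apoptosis-enhancing nuclease, fell from 64.3 ± 7.38 to 29.9 ± 5.57 CPM (edgeR FDR = 7.0e-07). Ei24, an endoplasmic reticulum protein gene, and Phlda3, which restrains AKT, fell by 0.69 and 0.51 on the log2 scale, and Zmat3, an RNA-binding zinc finger gene, fell by 0.53. Trp53inp1, which acts in stress responses, spanned 12.6 to 38.6 CPM in the WT libraries and 23.6 to 40.1 in the Lkb1-/- libraries, and these overlapped (log2 0.40, 95% interval -0.34 to 1.14). It was called with no filter on low counts (FDR = 0.00034).

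In metabolism, Tigar, which encodes a fructose bisphosphatase, was at 34, 31.1 and 32.1 CPM in WT and 16.6, 15.4 and 13 in Lkb1-/- cells. It was 2.16-fold lower with no overlap (log2 -1.11, SE 0.12, edgeR FDR = 4.2e-08). Sesn1 and Sesn2, stress-induced regulators of AMPK and mTORC1 signalling, differed by -0.16 (95% interval -0.41 to 0.08) and -0.26 (-0.61 to 0.08) and were not called, although Sesn2 was with no filter on low counts (FDR = 0.047). In DNA repair, Ddb2, which recognises ultraviolet lesions, rose from 3.97, 4.10 and 4.30 CPM to 8.78, 7.03 and 8.09 (edgeR FDR = 0.00012). Xpc, of the same repair pathway, rose by 0.31 (SE 0.074, edgeR FDR = 0.0011), a call lost without the filter on low counts (FDR = 0.068). The translesion polymerase gene Polk fell by 0.56 (SE 0.080, edgeR FDR = 3.6e-06), and the ribonucleotide reductase subunit gene Rrm2b differed by -0.01 (95% interval -0.14 to 0.12).

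Both INK4-ARF genes rose. Cdkn2a was at 93.9, 113 and 121 CPM in WT cells and 142, 165 and 171 in Lkb1-/- cells. The groups did not overlap (log2 0.54, SE 0.15, edgeR FDR = 0.0040). These counts sum the p16INK4a and p19ARF transcripts, which share exons. Cdkn2b was at 20.2, 21.1 and 22.2 CPM in WT and 26.5, 29.9 and 26.7 in Lkb1-/- cells, again without overlap (log2 0.39, SE 0.10, edgeR FDR = 0.0029).

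After IL-1β, Lkb1-/- and WT cells differed in 26 of the 31 genes, 9 higher and 17 lower, where 57.4% of all genes were called (30.2% higher and 27.1% lower). Trp53 (-0.51), Mdm2 (-0.68), Perp (-1.83) and Tigar (-1.02) were again lower. Cdkn1a was lower by a smaller amount (log2 -0.53, SE 0.23, edgeR FDR = 0.049), with WT at 23.2, 23.8 and 30.7 CPM and Lkb1-/- at 14.5, 18.5 and 20.7. These libraries did not overlap, but the call was lost without treated Lkb1-/- replicate 1 (FDR = 0.19) or 2 (0.083), or treated WT replicate 2 (0.060) or 3 (0.14), and under upper quartile (0.072) or RLE scaling (0.059). Trp53inp1 rose by 1.25 (edgeR FDR = 0.0058), and Cdkn2b was not called (log2 0.06). The heatmap of genotype differences gives all 31 genes under both treatments.

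**Figure D2:**
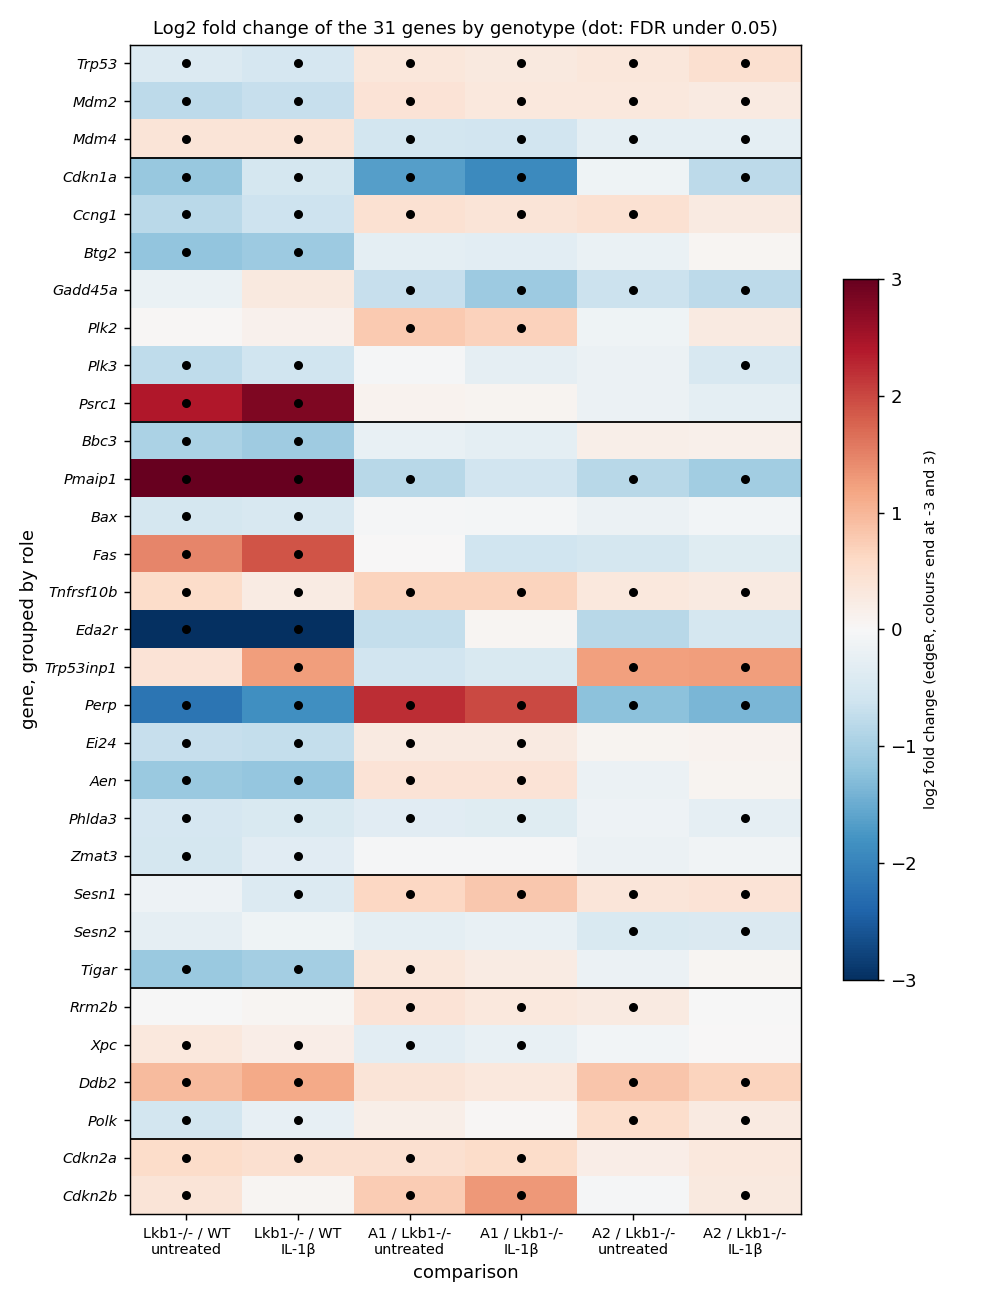
Log2 fold change (colour, ends at -3 and 3) of the 31 genes, in rows grouped by role, for Lkb1-/- against WT, A1 against Lkb1-/- and A2 against Lkb1-/-, untreated and after IL-1β, with a dot where edgeR's FDR was under 0.05. Trp53 and Mdm2 were lower in Lkb1-/- than in WT and higher in both clones than in Lkb1-/-, and Mdm4 had the opposite pattern. Perp was higher in A1 and lower in A2 than in Lkb1-/-.

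The second question was how these genes differ when Crtc2 is also lost, and each clone was compared with the same Lkb1-/- libraries, so the clone comparisons share their controls. In untreated cells, 19 of the 31 genes were called in A1, 13 higher and 6 lower, where 35.3% of all genes were called (18.9% higher and 16.4% lower). In A2, 14 were called, 9 higher and 5 lower, where 32.3% of all genes were called (17.1% higher and 15.1% lower). A block for the replicate number, which the check of pairing allowed for A2, left these calls in place, and under it 19 were called (45.9% of all genes), with Bax, Fas, Aen, Zmat3 and Cdkn2a added (FDR = 0.00044 for Fas and 0.0042 for Cdkn2a by edgeR). Fas was also called lower in A2 with no filter on low counts (log2 -0.55, FDR = 2.6e-07).

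In both clones Trp53 and Mdm2 were higher, and Mdm4 was lower, than in Lkb1-/- cells. Trp53 was at 316, 357 and 337 CPM in A1 and 304, 369 and 344 in A2, above every Lkb1-/- library (log2 0.34 and 0.35, edgeR FDR = 0.0052 and 0.0048). Relative to WT, Trp53 differed by -0.07 in A1 and -0.06 in A2 and was not called. Mdm2 was at 91.6, 88.4 and 96.2 CPM in A1 and 86.1, 86.2 and 86.5 in A2. These lay above all Lkb1-/- libraries and below all WT libraries (log2 0.42 and 0.32 against Lkb1-/-, -0.38 and -0.47 against WT). Mdm4 fell by 0.56 in A1 and 0.29 in A2 (edgeR FDR = 6.8e-05 and 0.020), and the A2 call was lost without A2 replicate 2 (FDR = 0.13) or 3 (0.18) or Lkb1-/- replicate 1 (0.13) or 3 (0.068), under upper quartile scaling (0.079) and with the compared groups fitted alone (0.070).

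Cdkn1a did not follow Trp53. It was at 4.39, 3.77 and 4.94 CPM in A1, and 8.74, 12.8 and 16.4 in A2. Every A1 library was below every Lkb1-/- library, whereas A2 overlapped them. The A1 level was 3.13-fold lower than in Lkb1-/- cells (log2 -1.65, SE 0.24, edgeR FDR = 2.0e-05) and 6.91-fold lower than in WT cells. For A2 the difference from Lkb1-/- cells was -0.12 (95% interval -0.59 to 0.36). After IL-1β, Cdkn1a was lower in both clones than in Lkb1-/- cells, by 1.92 in A1 and 0.79 in A2 on the log2 scale (edgeR FDR = 2.8e-06 and 0.011), and the A2 call was lost without treated A2 replicate 1 (FDR = 0.062) or treated Lkb1-/- replicate 3 (0.052).

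Other arrest genes also differed. Gadd45a fell to 4.24, 5.30 and 6.39 CPM in A1 and 4.41, 5.12 and 7.0 in A2, below each Lkb1-/- library (8.35, 8.28 and 9.28). On unstranded counts the A2 difference was not called (FDR = 0.057). Ccng1 rose in both clones (log2 0.45 and 0.46, edgeR FDR = 0.013 for each). Plk2, whose promoter window holds a CRE, rose in A1 (232, 274 and 203 CPM against 162, 140 and 111 in Lkb1-/-, log2 0.78, edgeR FDR = 0.00071), and in A2 was at 147, 139 and 90.8 CPM (log2 -0.14, not called). Btg2, also with a CRE, Plk3 and Psrc1 were called in neither clone against Lkb1-/- cells.

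Among cell death genes, Perp moved in opposite directions in the clones. It was at 24.9, 29.7 and 25.4 CPM in A1, close to the WT level (log2 0.03 against WT, not called), and at 2.08, 2.13 and 3.06 in A2. A1 was 4.67-fold above Lkb1-/- cells and A2 was 2.36-fold below them, with no overlap in either case (edgeR FDR = 6.9e-11 and 7.1e-07). Trp53inp1 rose in A2, at 43.8, 91.1 and 97.5 CPM against 23.6, 36.3 and 40.1 in Lkb1-/- cells (log2 1.22, SE 0.35, edgeR FDR = 0.011). This call was lost without Lkb1-/- replicate 1 (FDR = 0.054), and replicate 1 of A2 was well below the other A2 libraries. In A1, Trp53inp1 was at 18.6, 23.0 and 25.9 CPM and was not called (log2 -0.57, FDR = 0.24). It was called lower there with no filter on low counts (FDR = 7.8e-08) and with only the compared groups fitted (0.027).

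Tnfrsf10b rose in both clones (log2 0.67 and 0.32), and Pmaip1 fell in both, by 0.83 and 0.84 on the log2 scale (edgeR FDR = 0.016 for each), from 4.01, 3.11 and 3.62 CPM to 2.22, 1.82 and 1.98 in A1 and 1.25, 2.08 and 2.66 in A2. All were above the highest untreated WT library at 0.313 CPM. These Pmaip1 calls were lost without Lkb1-/- replicate 1 (FDR = 0.068 in A1 and 0.072 in A2), A1 replicate 2 (0.064) or A2 replicate 1 (0.090). Eda2r stayed near 0 with 4, 1 and 2 counts in A1 and 2, 5 and 0 in A2. Against Lkb1-/- cells, Aen, Ei24 and Phlda3 differed by 0.40, 0.26 and -0.33 in A1 and by -0.17, 0.08 and -0.15 in A2 on the log2 scale. Bbc3, Bax and Zmat3 were not called in either clone against Lkb1-/- cells. With the replicate block Bax (FDR = 0.0039) and Zmat3 (0.012) were called lower in A2, and Bax was there also under upper quartile scaling (FDR = 0.019) and with at least 10 counts in every library (0.018).

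In metabolism and repair, Sesn1 rose in both clones (log2 0.62 and 0.37) and so did Rrm2b (0.41 and 0.26). Tigar rose by 0.33 in A1 (edgeR FDR = 0.032), and Sesn2 fell by 0.46 in A2 (FDR = 0.038). Sesn2 differed by -0.30 in A1 and was not called (FDR = 0.18), but was with no filter on low counts (0.030) and with only the compared groups fitted (0.043). The test of A2 against A1 did not call it (log2 -0.16, FDR = 0.51). The Tigar call was lost without any 1 of the A1 libraries (FDR = 0.055 to 0.073) or Lkb1-/- replicate 2 (0.057) or 3 (0.18). The Sesn2 call was lost without A2 replicate 1 (FDR = 0.17) or 2 (0.063) or Lkb1-/- replicate 2 (0.11) or 3 (0.14), and that of Sesn1 in A2 without A2 replicate 2 (0.060) or Lkb1-/- replicate 2 (0.053). Without the filter on low counts Rrm2b was not called in A2 (FDR = 0.088). Ddb2 was at 11.8, 9.89 and 9.37 CPM in A1 and 15.3, 13 and 14.1 in A2, with the A2 libraries above all of Lkb1-/- (log2 0.83, edgeR FDR = 0.00089) and the A1 difference not called (0.38). Polk rose by 0.53 in A2 (edgeR FDR = 3.4e-05), and Xpc fell by 0.32 in A1, a call lost without the filter on low counts (FDR = 0.066).

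Each clone was also compared with WT, on shared WT libraries. In untreated cells, 26 genes were called in A1 against WT (10 higher, 16 lower), where 55.4% of all genes were called (30.3% higher and 25.1% lower). In A2 26 were called as well (10 higher, 16 lower), where 60.6% were (32.7% higher and 27.9% lower). Btg2 (-1.49 in A1 and -1.38 in A2), Bbc3 (-1.16 and -0.77), Bax (-0.55 and -0.70) and Tigar (-0.78 and -1.28) were lower in both. Psrc1 (2.53 and 2.25), Pmaip1 (3.37 and 3.36), Ddb2 (1.33 and 1.78) and Fas (1.47 and 0.95) were higher in both.

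The direct test of A2 against A1 in untreated cells called 13 of the 31 genes, 7 higher and 6 lower, where 32.5% of all genes were called (15.8% higher and 16.7% lower). With upper quartile scaling in place of TMM the split was 5 higher and 10 lower. The shares of all genes above come from the TMM fit and are no background for that split. The greatest differences were in Perp (log2 -3.46, 11-fold lower in A2), Trp53inp1 (1.78), Cdkn1a (1.53) and Plk2 (-0.91), and the libraries of the clones did not overlap for these.

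Of the INK4-ARF genes, Cdkn2b differed between the clones and Cdkn2a was not called (log2 -0.28, A2 minus A1, edgeR FDR = 0.16, with overlapping libraries). Exceptions were the fit with no filter on low counts (FDR = 0.0028) and the replicate block, which the check of pairing did not allow for this comparison. Cdkn2b was at 42.0, 49.8 and 50.2 CPM in A1 and 25.8, 27.7 and 28.2 in A2, against 26.5, 29.9 and 26.7 in Lkb1-/- cells. The A1 libraries were above all others (log2 0.77 against Lkb1-/-, SE 0.10, edgeR FDR = 5.5e-06), and A2 overlapped Lkb1-/- (log2 -0.03, FDR = 0.88). Cdkn2a was at 195, 233 and 236 CPM in A1 (log2 0.48, edgeR FDR = 0.016) and 152, 180 and 215 in A2 (log2 0.20, FDR = 0.35). The A1 call was lost without A1 replicate 2 or 3 (FDR = 0.060). Compared with WT, Cdkn2a rose by 1.02 in A1 and 0.74 in A2.

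Cdkn2a (chr4:89274471-89294653) and Cdkn2b (chr4:89306299-89311039) lie on the minus strand of GRCm38. With them, 38 annotated genes lie within 500 kb, of which 10 were tested. In Lkb1-/- against WT cells, the neighbouring methylthioadenosine phosphorylase gene Mtap (log2 0.38, edgeR FDR = 0.00068) and the noncoding genes Gm12602 (0.98) and AL805899.1 (1.62) rose along with them. In A1 against Lkb1-/-, Mtap (0.60, edgeR FDR = 1.1e-05) and Gm12602 (0.90) rose as well. In A2 against Lkb1-/-, the noncoding Wincr1 was the only called gene of the 10 in the fit without the replicate block, and it fell by 1.52 on the log2 scale (edgeR FDR = 0.00026). With the block Cdkn2a was called there too (log2 0.19, FDR = 0.0042).

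**Figure D3:**
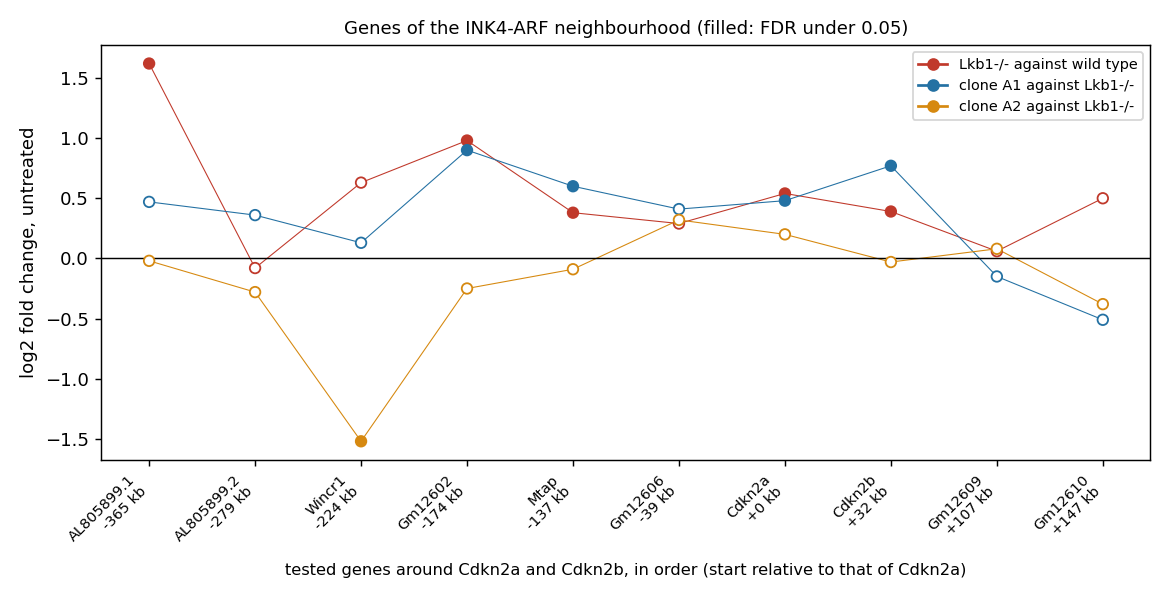
Log2 fold change in untreated cells of the 10 tested genes of the neighbourhood, Cdkn2a and Cdkn2b included, in order of position with the start of each given in kb from that of Cdkn2a, for 3 comparisons (filled points: edgeR FDR under 0.05). Mtap, Gm12602, Cdkn2a and Cdkn2b were higher in Lkb1-/- than in WT and in A1 than in Lkb1-/-, and in A2 against Lkb1-/- only Wincr1 was called in this fit, without the replicate block.

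The WT and Lkb1-/- lines are separate, and each double knockout is a single clone. Of 9 tested genes of the Y chromosome, 8 were higher in untreated Lkb1-/- than in WT cells, and the median over the 9 was 8.21 on the log2 scale. Each of the 31 genes was set beside the median of tested genes within 5 Mb. In Lkb1-/- against WT, Mdm2 (log2 -0.79) lay in a neighbourhood with a median of -0.57, and the median of its chromosome was -0.44. Cdkn1a (-1.14), Perp (-2.20) and Trp53 (-0.40) lay among genes with medians of 0.29, 0.45 and -0.07. Of the 25 called genes, 24 kept their direction after the local median was subtracted, and Xpc (0.31, local median 0.37) did not.

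In the clones, the rise in Trp53 was about that of its neighbours: 0.34 against a local median of 0.29 in A1, and 0.35 against 0.31 in A2. Mdm2 behaved likewise, with 0.42 against 0.44 in A1 and 0.32 against 0.26 in A2. Ccng1 in A1 (0.45, local 0.39) and Rrm2b in A2 (0.26, local 0.27) were also close to the local median, and Ccng1 in A2 (0.46, local 0.27) less so. Perp in A1 (2.22, local 0.34), Perp in A2 (-1.24, local 0.19) and Cdkn1a in A1 (-1.65, local -0.36) were far from the local median. Cdkn2b in A1 (0.77) was above its local median of 0.18, but the nearby Mtap (0.60) and Gm12602 (0.90) rose there as well. The direction held after subtraction for 17 of 19 called genes in A1 and 13 of 14 in A2. Such counts take any remainder of the same sign, however small, as for Trp53 with 0.04 left in each clone. They do not measure how much of a change is shared with the neighbourhood. Whether copy number plays a part was not tested.

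**Figure D4:**
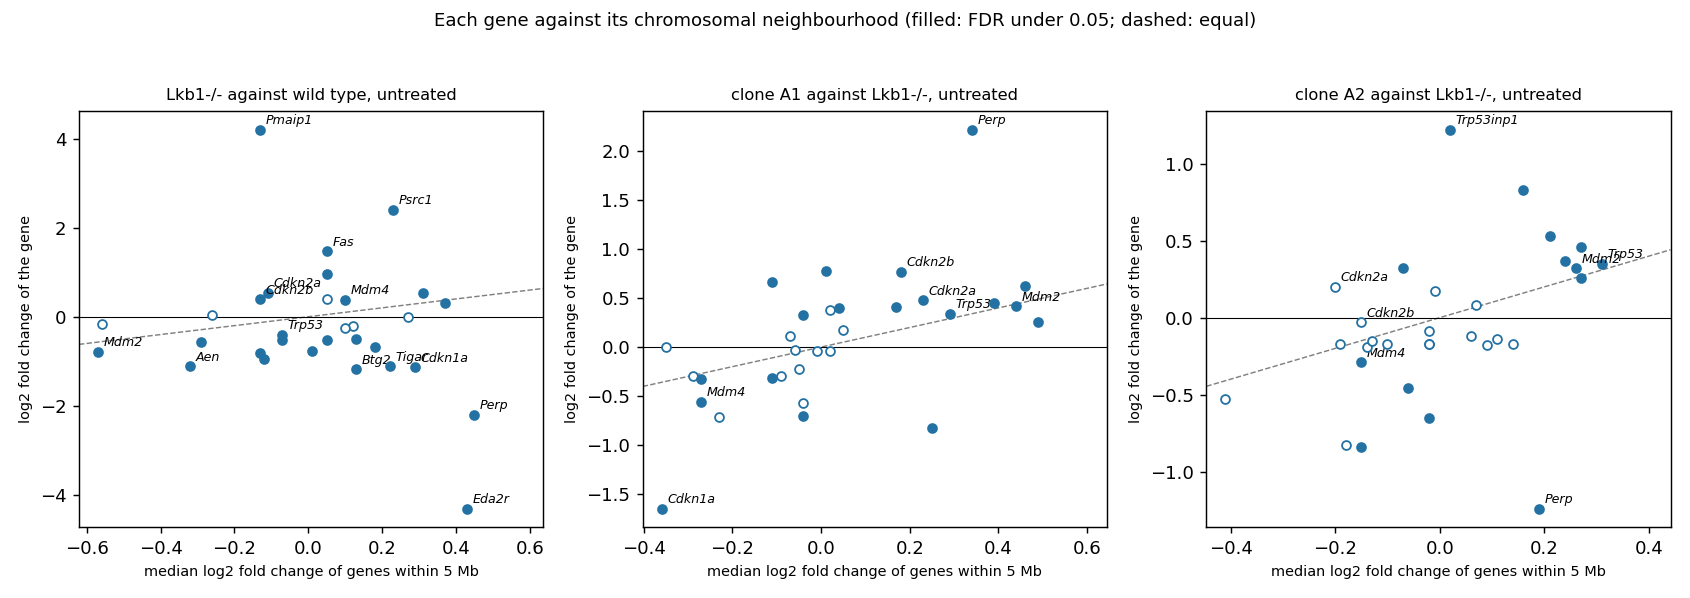
Log2 fold change of each of the 31 genes (vertical) against the median log2 fold change of tested genes within 5 Mb (horizontal) in untreated Lkb1-/- against WT, A1 against Lkb1-/- and A2 against Lkb1-/- (filled: edgeR FDR under 0.05, dashed line: equal values). Trp53 and Mdm2 lie near the line in both clones, and Perp lies far from it in each panel.

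After IL-1β, between 1 and 5 of these genes were called in each genotype without a replicate block (1.99 to 5.68% of all genes). Between 5 and 14 were called with it (9.30 to 17.9%), and Fas had the largest change. Fas, an NF-κB target as well as a p53 target, rose in each genotype, from 5.76, 8.24 and 8.50 CPM to 24.3, 33.1 and 37.7 in WT, and from 17.0, 26 and 19.5 to 102, 129 and 121 in Lkb1-/- cells. In A1 it went from 14.7, 24.9 and 22.6 CPM to 66.0, 82.3 and 85.5, and in A2 from 9.43, 18.6 and 15.4 to 61.5, 98.5 and 112. Treated and untreated libraries did not overlap in any genotype, and the treated Lkb1-/- libraries were all above those of WT. The log2 fold changes were 2.08 (SE 0.27) in WT, 2.49 (0.26) in Lkb1-/-, 1.91 (0.25) in A1 and 2.65 (0.26) in A2, with edgeR FDR = 5.1e-05, 1.6e-06, 9.4e-05 and 8.6e-07.

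The test called 2 of the 31 genes in WT cells, 1 higher and 1 lower, where it called 2.26% of all genes (1.53% higher and 0.731% lower). In Lkb1-/- cells it called 2, both higher, where it called 4.74% (2.65% higher and 2.09% lower), and in A1 1, higher, where it called 1.99% (1.20% higher and 0.788% lower). In A2 it called 5, 2 higher and 3 lower, where it called 5.68% (2.81% higher and 2.86% lower). Beside Fas these were Polk in WT (log2 -0.35), Gadd45a in Lkb1-/- (0.66, from 8.35, 8.28 and 9.28 to 13.1, 14.3 and 13.5 CPM, edgeR FDR = 0.017), and Plk2 (0.94, edgeR FDR = 0.00077), Polk (-0.28), Tnfrsf10b (-0.31) and Rrm2b (-0.22) in A2. With only the compared groups fitted, Plk2, Polk, Tnfrsf10b and Rrm2b were not called in A2, nor was Polk in WT. The Gadd45a call was lost without replicate 2 of either Lkb1-/- group (FDR = 0.085 and 0.072). The Polk call in WT was lost without untreated WT replicate 2 (FDR = 0.064) or 3 (0.15) or treated WT replicate 1 (0.088) or 2 (0.069). In A2, Polk, Tnfrsf10b and Rrm2b were each lost without untreated replicate 2 (FDR = 0.19, 0.14 and 0.14), treated replicate 1 (0.078, 0.13 and 0.11) or treated replicate 2 (0.12, 0.10 and 0.073), Tnfrsf10b and Rrm2b also without untreated replicate 3 (0.14 and 0.13), and Polk without untreated replicate 1 (0.13) or treated replicate 3 (0.24). Replicate numbers paired treated and untreated libraries in each genotype, and with the replicate as a block 10 genes were called in WT (9.30% of all genes), 9 in Lkb1-/- (14.8%), 5 in A1 (9.61%) and 14 in A2 (17.9%).

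Under that block Plk2 rose in all 4 genotypes, from 146, 139 and 119 CPM to 192, 182 and 173 in WT and from 162, 140 and 111 to 209, 207 and 179 in Lkb1-/- (edgeR FDR = 0.0033 in WT, 0.00028 in Lkb1-/- and 0.0027 in A1). In A1 it went from 232, 274 and 203 to 304, 352 and 305, and in A2 from 147, 139 and 90.8 to 281, 241 and 199. The treated libraries were above the untreated ones in each genotype. Ccng1 fell under the block in WT, A1 and A2 (FDR = 0.0012, 0.036 and 0.00086), Psrc1 in WT and A2, Trp53inp1 in WT, and Cdkn2b in Lkb1-/- (log2 -0.35, FDR = 0.00061). Trp53 rose in A2 (log2 0.23, FDR = 0.019), while Cdkn2a, Mdm2 and Mdm4 were called in none.

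**Figure D5:**
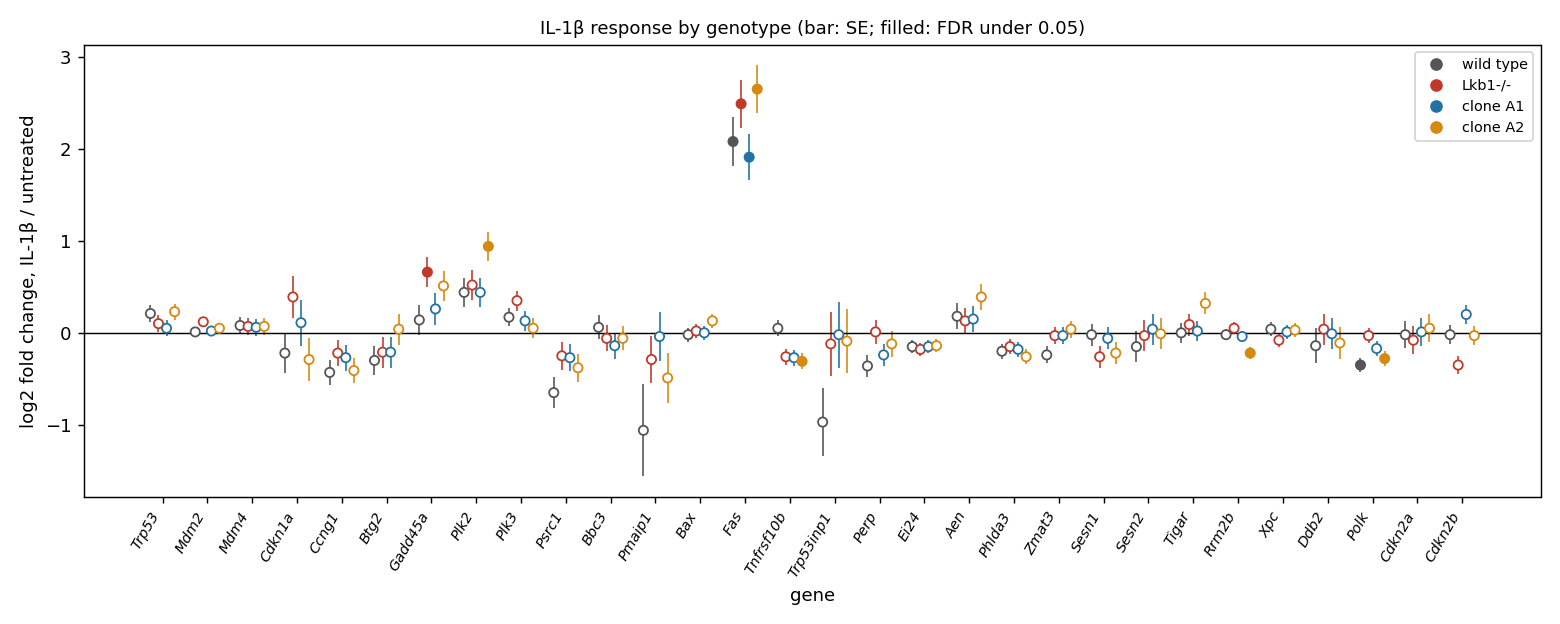
Log2 fold change of IL-1β against untreated for 30 of the genes in each genotype, with SE as bars and filled points where edgeR's FDR was under 0.05 without the replicate block. Eda2r is not drawn because of its low counts. Fas rose in each genotype by 1.91 to 2.65, and Plk2 was above 0 in all 4.

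edgeR's interaction test of the response between genotypes called 0 of the 31 genes in Lkb1-/- against WT (0.245% of all genes, 0.137% higher and 0.108% lower), A1 against Lkb1-/- (0.0285%, all lower) and A2 against Lkb1-/- (0.00%). At an unadjusted p under 0.05 there were 5, 1 and 3 of the 31, where 5.62%, 2.47% and 2.21% of all genes were under it. DESeq2 called 0 in each, and 0.878%, 0.0871% and 0.0966% of all genes. The response of Fas differed by 0.41 between Lkb1-/- and WT (95% interval -0.34 to 1.16), by -0.58 between A1 and Lkb1-/- (-1.31 to 0.15) and by 0.16 between A2 and Lkb1-/- (-0.58 to 0.89), intervals that do not exclude sizeable differences. With no filter on low counts, Trp53inp1 (log2 0.88, FDR = 1.2e-07) and Cdkn1a (0.64, FDR = 0.027) were called for Lkb1-/- against WT and Fas (-0.57, FDR = 0.0058) and Cdkn2b (0.56, FDR = 0.029) for A1 against Lkb1-/-. With the replicate block, Tnfrsf10b was called for Lkb1-/- against WT (log2 -0.30, FDR = 0.011) and Cdkn2b for A1 against Lkb1-/- (0.54, FDR = 0.0085).

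Genotype differences after IL-1β between the clones and Lkb1-/- cells called 17 genes in A1, 12 higher and 5 lower, where 36.7% of all genes were called (19.4% higher and 17.3% lower). In A2 16 were called, 8 higher and 8 lower, where 32.8% of all genes were called (17.1% higher and 15.8% lower). Cdkn2b was 2.49-fold higher in treated A1 than in treated Lkb1-/- cells (47.9, 57.4 and 57.2 against 20.0, 24 and 21.3 CPM, edgeR FDR = 6.6e-09). With the replicate block 25 genes were called in A1, 14 higher and 11 lower (49.1% of all genes), and 22 in A2, 12 higher and 10 lower (46.6%). The added calls were Btg2, Plk3, Bbc3, Pmaip1, Fas, Trp53inp1, Tigar and Ddb2 in A1, and Ccng1, Plk2, Psrc1, Fas, Ei24 and Cdkn2a in A2. Under it Fas was lower in both clones (log2 -0.59 in A1, FDR = 3.8e-05, and -0.40 in A2, FDR = 0.0021), and Cdkn2a was higher in A2 (0.32, FDR = 1.9e-05). Without it, Fas differed by -0.59 (FDR = 0.065) and -0.37 (FDR = 0.27). The A1 difference was also called without the block by DESeq2 (FDR = 0.044), under upper quartile scaling (0.041), with at least 10 counts in every library (0.041), with the compared groups alone (0.0032) and with no filter (3.8e-09), and the A2 difference with no filter (0.00030).

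Other genes of the pathway, grouped by role, were set beside these, with the 55.9% of all genes called in untreated Lkb1-/- against WT cells (30.1% higher and 25.8% lower) as the background. Of 6 kinases that activate p53, 3 rose and 1 fell in untreated Lkb1-/- against WT cells, with Prkdc at 0.37, Chek2 at 0.36 and Atr at -0.80 on the log2 scale. Of 8 further inhibitors and modifiers, 2 rose and 4 fell, among them the p53 ubiquitin ligase gene Cop1 (-0.97) and the phosphatase gene Ppm1d (-0.39). Of 24 further p53 targets tested, 9 rose and 4 fell, 54.2% of the list. The lysosomal autophagy regulator gene Dram1 rose by 2.78 and the ferrireductase gene Steap3 by 1.24, while Thbs1, which encodes thrombospondin, fell by 0.75. Igfbp3, which binds insulin-like growth factors, had 0 counts in the 3 untreated WT libraries together and 665 in those of Lkb1-/-, at least 65.9-fold higher. The p53 homologue Trp63 had 2 and 160.

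In the CDK4/6 and Rb pathway, 7 of 15 genes rose and 6 fell in Lkb1-/- cells (86.7% called, against 55.9% of all genes). The D-type cyclin genes Ccnd2 (-4.10) and Ccnd1 (-1.56) and Cdk6 (-1.56) fell, and Rb1 (0.98) and E2f1 (1.02) rose. The CDK inhibitor gene Cdkn1c had 2 counts over the untreated WT libraries and 2695 over those of Lkb1-/-, 1319-fold higher (counting interval 365 to 10898). Of 14 regulators of the INK4-ARF locus tested, 7 rose and 5 fell (85.7% called), and among Polycomb genes Bmi1 fell by 0.88 while Ezh2 rose by 0.68 and Cbx8 by 0.83.

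In the clones against Lkb1-/-, 3 of the 24 further p53 targets rose and 6 fell in A1 (37.5% called, against 35.3% of all genes), and 2 rose and 3 fell in A2 (20.8%, against 32.3%). Thbs1 (1.25) rose in A1, and the ubiquitin ligase gene Siah1a fell by 0.70 there. Ccnd2 fell by 1.20 in A1 and 3.50 in A2, and Cdkn2c, which encodes p18INK4c, by 0.77 and 0.66. Of the 14 regulators of the INK4-ARF locus, 2 rose and 5 fell in A1 and 4 rose and 3 fell in A2 (50% called in each). Tbx3, a repressor of the locus, fell by 0.92 in A1 and 0.63 in A2.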

How the data were processed

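RNA-seq was measured in 24 libraries in 8 groups of 3. Per the submitters' processing notes and the study's methods, the authors trimmed reads with Trim Galore 0.6.0 and aligned them with STAR 2.7.8a to mm10 (GRCm38), and they deposited STAR's read counts per gene, without normalization. Column 4 (counts of 1 strand setting) was used, since it held 95.5 to 96% of the counts on either strand. Rows that name no gene, 26.7 to 34.4% of each library's reads (median 28.9%), were left out. The labels and the study's methods name different library kits, and the strand setting used in the study is not given in the sources used here. Reads shared by overlapping genes depend on it.

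Counts were filtered (filterByExpr, minimum count 10 and minimum total 15), scaled by TMM (factors 0.922 to 1.09) and fitted with edgeR 4.0.16's quasi-likelihood test (R 4.3.3, limma 3.58.1), 1 coefficient per group over all 24 libraries. Benjamini-Hochberg adjustment ran over 17522 genes, and calls had FDR under 0.05. Names and positions came from GENCODE version M21 (GRCm38), an earlier version than the study's methods name, in which 55230 of the 55471 gene IDs were matched without their version suffix and 241 were not. Symbols and counts of annotated genes can differ between versions. Exact permutation of 3 against 3 libraries cannot go below p = 0.1 and was not used. Counting intervals cover counting error at the 95% level only, and a count of 0 allows up to 3 counts. The scripts were tested on simulated data.

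The members and lists were chosen with earlier results of these data known. All 31 members are named, and from each further list up to 3 called genes per direction with the largest fold change and a mean log2 CPM above 1, of which some are not reported here. Principal component 1 of log2 CPM took up 67.2% of variance, the lowest correlation within a group was 0.985, and the common biological coefficient of variation was 0.129.

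Same-numbered libraries deviated together in 8 of 13 comparisons (each pair's correlation over 0.1, range of all pairs 0.0355 to 0.589), including IL-1β in each genotype. Alternatives were upper quartile scaling, RLE size factors, no filter, at least 10 counts in every library, unstranded counts, DESeq2 1.42.0, the newer quasi-likelihood method of edgeR, the groups compared alone, the replicate block and leaving out each library. A block within each genotype was added after seeing the data.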

Additional observations from a re-analysis of the deposited data

Results flagged for a closer look

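The 2 clones were made in the same Lkb1-/- background, and 13 of the 31 genes differed between them in untreated cells by edgeR's test of A2 against A1 (FDR under 0.05, where 32.5% of all genes were called), which is also the difference between their fold changes against Lkb1-/-. On the log2 scale, A2 minus A1, the cell death genes differed by -3.46 for Perp (FDR = 4.0e-13), 1.78 for Trp53inp1 (0.00064), 0.39 for Bbc3 (0.034), -0.35 for Tnfrsf10b (0.0041) and -0.57 for Aen (0.0032). The arrest genes Cdkn1a and Plk2 differed by 1.53 (edgeR FDR = 5.0e-05) and -0.91 (0.00017). Mdm4 differed by 0.27 (0.029) and Tigar by -0.50 (0.0020). The repair genes Xpc, Ddb2 and Polk differed by 0.23, 0.45 and 0.36, and Cdkn2b by -0.80 (edgeR FDR = 4.6e-06). Some calls were lost when a single library was left out. These were Mdm4 without A1 replicate 2 (FDR = 0.10) or 3 (0.067) or A2 replicate 1 (0.20), Bbc3 without A1 replicate 1 (0.099) or 3 (0.14) or A2 replicate 2 (0.22) or 3 (0.066), and Xpc without A1 replicate 1 (0.11) or 3 (0.056) or A2 replicate 2 (0.081). Ddb2 was lost without A1 replicate 2 (0.13) or 3 (0.16) or any 1 of the A2 libraries (0.063 to 0.15). Against Lkb1-/-, Perp rose by 2.22 in A1 and fell by 1.24 in A2, and Cdkn2b rose by 0.77 in A1 and was not called in A2 (-0.03, edgeR FDR = 0.88). Each clone was compared as a single clone, so what sets the 2 apart was not tested.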

How the results depend on the processing

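No gene changed direction in a called comparison under any alternative run. With libraries left out 1 at a time, the number of the 31 genes called was 25 to 25 for Lkb1-/- against wild type untreated and 23 to 25 after IL-1β, 15 to 18 for A1 and 11 to 14 for A2 against Lkb1-/- untreated, and 13 to 16 and 12 to 15 after IL-1β. It was 25 to 26 for each clone against wild type, 9 to 12 for A2 against A1, and 0 to 0 for each response difference. For IL-1β it was 1 to 4 in wild type, 1 to 3 in Lkb1-/-, 1 to 1 in A1 and 2 to 8 in A2, where it was 2 without untreated A2 replicate 2 and 8 without untreated A2 replicate 1.

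The IL-1β counts depended most on the processing. Upper quartile scaling called 4 in wild type, 4 in Lkb1-/- and 2 in A1 (3.05, 6.02 and 2.85% of all genes). No filter called 6, 5 and 2 (2.59, 3.88 and 2.47%), and DESeq2 called 5 in wild type and 5 in Lkb1-/- (3.56 and 6.31%). Fitting the compared groups alone called 2 in A1 and 1 in A2 (3 and 1.54%), and unstranded counts called 2 in A2 (4.59%). The replicate block called 10, 9, 5 and 14 in wild type, Lkb1-/-, A1 and A2 (9.30, 14.8, 9.61 and 17.9%), and a block within each genotype, chosen after seeing the data, 13, 12, 8 and 16 (16.1, 22.6, 16.3 and 26%). For the response differences of Lkb1-/- minus wild type, A1 minus Lkb1-/- and A2 minus Lkb1-/-, no filter called 2, 2 and 0 (0.943, 0.383 and 0.185% of all genes), the replicate block 1, 1 and 0 (1.77, 0.205 and 0.103%), and the block within each genotype 8, 2 and 4 (5.72, 1.52 and 1.04%). For A2 against A1, whose numbers are not paired by the check, the replicate block called 20 against 13 (46.3% of all genes against 32.5%), Cdkn2a among them (FDR = 5.4e-05). In 2 other comparisons that the check did not pair, the block called Trp53inp1 (FDR = 0.0081), Sesn2 (0.031), Btg2 (0.018) and Ddb2 (0.013) in untreated A1 against Lkb1-/-, and Trp53inp1 (0.015) and Sesn2 (0.028) in untreated Lkb1-/- against wild type. The block ended no call. The cause of these shifts was not tested. Pmaip1 and Eda2r could not be tested with at least 10 counts in every library, and unstranded counts called Gadd45a lower in untreated Lkb1-/- cells (log2 -0.50, FDR = 0.030). With only the compared groups fitted, Plk2 was not called after IL-1β in A2 (log2 0.96, FDR = 0.097). Fitted so, Polk in wild type (FDR = 0.11), Polk, Tnfrsf10b and Rrm2b in A2 (0.37, 0.24 and 0.35) were not called after IL-1β either, nor Sesn2 in untreated A2 against Lkb1-/- (0.064), nor Mdm4, Bbc3, Xpc and Tigar between the clones (0.088, 0.17, 0.12 and 0.053). Upper quartile scaling ended the calls of Tigar in A1 against Lkb1-/- (FDR = 0.071) and of Mdm4 and Ddb2 between the clones (0.086 and 0.084). Depth limits Eda2r and Pmaip1 most.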
